A study of Mus musculus with 2 samples.

Results

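The 10 circadian clock genes described here are Clock, Arntl (also called Bmal1), Per1, Per2, Per3, Cry1, Cry2, Nr1d1, Nr1d2 and Dbp. They were chosen by symbol and not by any measured value, though earlier results of these data were known. They have 16 transcript rows among the 35034 RefSeq rows of the series, and 10 of its 24411 gene symbols. RNA-seq was performed on neuron-enriched preparations of thoracic and lumbar dorsal root ganglia (DRGs, the clusters of sensory neuron cell bodies beside the spinal cord) from C57BL/6 mice (C57BL/6J in the methods of the study). According to the methods of the study the mice were males of 6 to 8 weeks, kept under cycles of 12 h light and 12 h dark, and no gene was altered in either group. All mice received 50% alum, an aluminium salt adjuvant, intraperitoneally in 200 µl of saline on days 0 and 14, and DRGs were taken on day 28. One group received alum alone, and the label of this library also calls it naïve. The other group received alum together with KLH (keyhole limpet hemocyanin, 100 µg), a mollusc protein foreign to mice. The ganglia were digested with collagenase/dispase for an hour and depleted of B lymphocytes before RNA was made. Each group is 1 library from the pooled DRG neurons of 10 mice, so every value below is a single measurement with no replicates, no error between mice and no test. The hour of the day at which mice were killed is not given in the sources used here, and with 1 pool a group, an effect of that hour and an effect of KLH cannot be told apart.

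The circadian clock is a feedback loop of transcription factors that runs in nearly every mouse cell with a period of about a day. CLOCK and BMAL1, the product of Arntl, bind E-box sequences and activate the Per and Cry genes, whose products return to the nucleus and repress their own activators. In a second loop CLOCK and BMAL1 activate Nr1d1 and Nr1d2, which encode REV-ERBα and REV-ERBβ, and these receptors repress Arntl at RORE sequences. Dbp, an output gene, encodes a PAR bZIP factor that acts on D-box sequences in other clock genes. In mouse peripheral tissues Dbp, the REV-ERB genes and the Per genes peak at roughly the opposite time of day to Arntl and Npas2. The balance of these arms can therefore report on the phase at which a tissue was collected.

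Expression is given in TPM, a measure of transcript abundance that corrects for transcript length and for the size of the library, and TPM was summed over the transcripts of a gene. The study counted a value above 3 TPM as detectable, and 11454 genes in the alum pool and 11302 in the alum + KLH pool passed this level. Differences between pools are given as log2 ratios, alum + KLH over alum, after 1 TPM was added to each value, which understates the difference of genes at low TPM. TPM holds no read numbers, so no counting interval or detection floor can be given. For the labelled tissue, all 8 neuronal markers and all 6 satellite glia markers were above 3 TPM in both pools. Schwann cell markers were split, with 3 of 6 above this level in both pools and Mag at 0.238 and 0.227 TPM. The summed TPM of the list was 1180 and 1121, of which Pmp22 alone held 1062 and 1021. None of 7 macrophage markers reached 3 TPM in either pool, with summed values of 6.24 TPM in the alum pool and 5.65 TPM in the alum + KLH pool. Endothelial markers summed to 10.2 and 7.24 TPM over 5 genes, and fibroblast markers to 80.6 and 81.1 TPM over 5 genes. Of these, only 1 endothelial and 2 fibroblast genes were above 3 TPM in both pools. Dcn alone held 63.8 and 62.6 TPM of the fibroblast sum. Of 3 T cell markers in the files, Cd3g was listed at 0 in both pools and Cd3d was highest at 2.97 and 3.13 TPM. Red cell genes summed to 9.02 TPM in the alum pool and 2.90 TPM in the alum + KLH pool over 5 genes. The preparations therefore held neurons and glia together, and in such bulk RNA fewer cells of a type and less RNA per cell cannot be told apart.

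The clock genes differed far more from each other than between the pools, and the order of their levels was nearly the same in both. Nr1d2 was the highest in both pools, followed by Clock. Cry1 and Cry2 lay together in the third and the fourth place and exchanged places between the pools. Per2, Nr1d1, Arntl, Per3, Per1 and Dbp followed in this order in both pools. With 1 library a group it is unknown which neighbours in this order differ beyond the spread between mice. Only 5 of the 10 genes, namely Nr1d2, Clock, Cry1, Cry2 and Per2, were above 3 TPM in both pools, and Nr1d1 passed in the alum pool alone. Arntl, Per1, Per3 and Dbp were below 3 TPM in both pools, so both Arntl and the output gene Dbp are read from low values here.

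**Figure D1:**
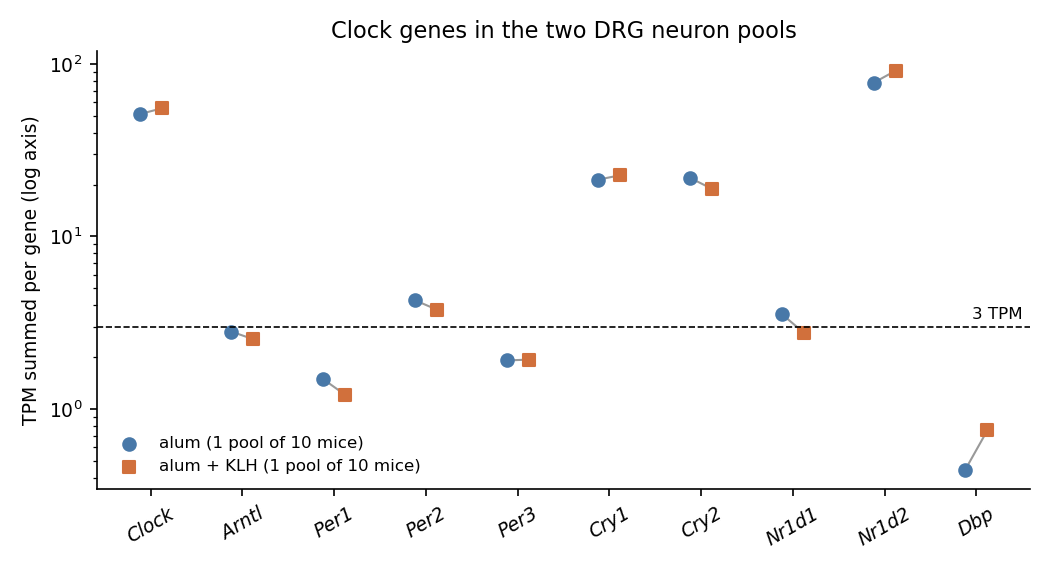
TPM summed per gene (log axis) of the 10 clock genes in the alum pool (blue circles) and the alum + KLH pool (orange squares), 1 library each, with the detection level of 3 TPM as a dashed line. Nr1d2 and Clock lie highest, and Dbp lies lowest at 0.445 and 0.751 TPM. The 2 symbols of each gene lie close together compared with the range over the 10 genes, while neighbours such as Cry1 and Cry2 lie together.

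The activators of the loop were present at very unequal levels. Clock (chromosome 5, 76209868 to 76305603 of GRCm38.p6), which encodes the partner of BMAL1, was at 51.2 TPM in the alum pool and 55.2 TPM in the alum + KLH pool, a log2 ratio of 0.11. Arntl (chromosome 7, 113178471 to 113314126) was at 2.81 and 2.54 TPM, a log2 ratio of -0.11. The TPM of Clock was thus 18.2 times that of Arntl in the alum pool and 21.8 times in the alum + KLH pool. Npas2, a paralog that can stand in for Clock, was at 2.22 and 2.12 TPM. Arntl2, the paralog of Arntl, was at 7.01 and 7.84 TPM and exceeded Arntl 2.50-fold and 3.09-fold.

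The repressors of the Per and Cry families differed in level more between families than between pools. Cry1 (chromosome 10, 85131700 to 85185054) was at 21.4 TPM in the alum pool and 22.6 TPM in the alum + KLH pool, a log2 ratio of 0.081. Cry2 (chromosome 2, 92403646 to 92434085), the other cryptochrome repressor, was at 21.8 and 18.9 TPM, a log2 ratio of -0.20. Cry1 therefore stood at 0.978 times Cry2 in the alum pool and at 1.20 times Cry2 in the alum + KLH pool. Per2 (chromosome 1, 91415977 to 91459351) was the highest period gene at 4.27 and 3.76 TPM, a log2 ratio of -0.15. Per1 (chromosome 11, 69095108 to 69109965), the period gene that cAMP and glucocorticoid signals are known to induce acutely, was at 1.49 and 1.21 TPM, a log2 ratio of -0.17. Per3 (chromosome 4, 150997018 to 151044707) was at 1.91 and 1.93 TPM, a log2 ratio of 0.010. The sign of Cry1 and of Per3 turned when TPM was taken relative to Hprt, with log2 ratios of -0.00032 and -0.045.

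The 2 REV-ERB genes also differed widely in level. Nr1d2 (chromosome 14, 18204056 to 18239106) was at 77.7 TPM in the alum pool and 91.4 TPM in the alum + KLH pool, a log2 ratio of 0.23. Only 10.8% and 9.48% of all genes of the same pool had higher TPM. Nr1d1 (chromosome 11, 98767932 to 98775377) was at 3.55 and 2.77 TPM, a log2 ratio of -0.27. The paralogs stood in opposite directions, and Nr1d2 exceeded Nr1d1 21.9-fold in the alum pool and 33.0-fold in the alum + KLH pool. Of the 3027 genes with a mean of 30 to 100 TPM, 7.04% differed between the pools by at least as much as Nr1d2. Among the 3083 genes with a mean of 3 to 10 TPM, 19.98% differed by at least as much as Nr1d1. Of the genes Rora and Rorb, whose products activate at the sequences that REV-ERBs repress, Rora was at 12.1 and 13.4 TPM, while Rorb was at 0.653 and 0.512 TPM.

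Dbp (chromosome 7, 45705100 to 45710203) was the lowest clock gene in both pools, at 0.445 TPM in the alum pool and 0.751 TPM in the alum + KLH pool. The plain ratio of these values is 1.69-fold, the largest of the 10 genes, and the log2 ratio with 1 TPM added is 0.28. Both values are below 3 TPM, and the number of reads behind them is unknown. Tef, another PAR bZIP factor, was at 35.2 and 34.02 TPM and thus exceeded Dbp 79.1-fold and 45.3-fold. Hlf, the third member of this family, was at 1.04 and 1.19 TPM. Nfil3, which encodes a repressor that binds the same D-box sequences, was at 14.3 and 14.01 TPM.

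Upstream sequence is shown for the REV-ERB pair, whose levels differed widely, and for the genes that carry an E-box or D-box, so that the elements named above can be seen. RefSeq windows of GRCm38.p6 that run from 250 bases before to 50 bases after an annotated start were searched on both strands for CACGTG (E-box), CACGTT (a weaker E-box variant), TTATGTAA and TTACGTAA (D-box), AGGTCA (the half-site within a RORE) and TGACGTCA (the cAMP response element, CRE). Windows were found for 9 of the 10 genes, 13 windows in all, and Per2 had none. The sequences below are the 250 bases before the start, 5′ to 3′ on the strand of the gene, with matches in capitals.
Nr1d1, chr11:98775378-98775627, minus strand: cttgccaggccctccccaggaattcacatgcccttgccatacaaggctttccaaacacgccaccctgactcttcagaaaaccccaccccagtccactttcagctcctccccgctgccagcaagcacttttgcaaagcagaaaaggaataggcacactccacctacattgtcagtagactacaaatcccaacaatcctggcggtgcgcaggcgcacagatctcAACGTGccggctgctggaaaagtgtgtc
Nr1d2, chr14:18239107-18239356, minus strand: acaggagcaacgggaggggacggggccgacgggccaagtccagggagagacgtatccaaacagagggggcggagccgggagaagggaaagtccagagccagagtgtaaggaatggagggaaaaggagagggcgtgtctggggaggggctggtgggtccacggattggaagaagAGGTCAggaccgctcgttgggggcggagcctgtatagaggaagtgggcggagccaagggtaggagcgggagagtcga
Cry1, chr10:85185055-85185304, minus strand: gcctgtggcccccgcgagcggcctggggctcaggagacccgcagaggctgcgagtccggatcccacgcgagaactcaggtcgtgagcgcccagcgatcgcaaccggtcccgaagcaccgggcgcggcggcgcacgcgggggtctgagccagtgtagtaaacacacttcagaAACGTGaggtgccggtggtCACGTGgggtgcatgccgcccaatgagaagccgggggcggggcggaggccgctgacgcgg
Per3, chr4:151044666-151044915, minus strand: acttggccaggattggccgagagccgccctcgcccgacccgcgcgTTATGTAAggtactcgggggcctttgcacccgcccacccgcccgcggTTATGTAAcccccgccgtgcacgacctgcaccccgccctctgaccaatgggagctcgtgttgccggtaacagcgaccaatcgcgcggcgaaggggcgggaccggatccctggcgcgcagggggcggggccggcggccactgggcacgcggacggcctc
Per1, upstream start, chr11:69098699-69098948, plus strand: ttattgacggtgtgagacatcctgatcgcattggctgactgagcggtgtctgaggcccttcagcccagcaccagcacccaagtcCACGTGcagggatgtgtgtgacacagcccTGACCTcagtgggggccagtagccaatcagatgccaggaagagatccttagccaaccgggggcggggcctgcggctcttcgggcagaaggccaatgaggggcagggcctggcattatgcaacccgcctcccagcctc
Per1, downstream start, chr11:69099902-69100151, plus strand: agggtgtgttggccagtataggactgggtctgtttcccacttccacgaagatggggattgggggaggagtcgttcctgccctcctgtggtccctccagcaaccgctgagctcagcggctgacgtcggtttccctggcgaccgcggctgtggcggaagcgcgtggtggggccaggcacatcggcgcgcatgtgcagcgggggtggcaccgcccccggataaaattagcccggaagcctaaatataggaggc

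In these windows Per1 held an E-box at its upstream start, and Cry1 held an E-box and the variant. An E-box was present in 7.15% of all 32851 windows of the mouse table, and the variant CACGTT, seen in Cry1, Cry2 and Nr1d1, in 4.69%. Per3 carried the D-box TTATGTAA at 2 positions, a sequence found in 0.938% of all windows. The short half-site AGGTCA of Nr1d2, which also occurred in windows of Arntl, Clock and Per1, was found in 16.3% of windows. No window of Dbp held any of these letters, and TTACGTAA and the CRE were found in no window of the 9 genes. Matches of this kind are descriptions of sequence and were not compared with binding data.

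The transcript rows placed nearly all Per1 on the downstream start. NM_001159367, which starts within 6 bases of the downstream window's start, was at 1.47 TPM in the alum pool and 1.20 TPM in the alum + KLH pool, or 98.7% and 99.2% of the gene. NM_011065, which starts 1 base from the upstream start with the E-box, was at 0.0196 and 0.00909 TPM. The starts lie 1203 bases apart, and the rows share all but 34 and 69 of their sequences of 31 bases, the length that kallisto matches by default. The split of Per1 thus rests on few sequences and on a gene below 3 TPM.

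Most Clock expression was assigned to a short model. NM_001305222, which in GENCODE M21 has 21 exons and 5508 bases, was at 39.4 and 41.1 TPM, or 76.9% of the gene in the alum pool and 74.4% in the alum + KLH pool. In GENCODE M21 this model starts 29490 bases from the nearest window start of Clock, so sequence upstream of that start was not searched. Whether the RefSeq row itself starts at a Clock window was not examined. NM_001289826, the longest model with 9744 bases, was at 10.7 and 11.4 TPM. NM_007715 was at 1.12 and 2.75 TPM, the largest difference of any of the 16 rows at a log2 ratio of 0.82, although it stayed below 3 TPM in both pools. In the GENCODE M21 models, only 27 of the 5478 sequences of 31 bases in NM_001305222 are absent from the other Clock models. The division is thus less certain than the sum.

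Arntl was divided between NM_007489, at 1.65 and 1.41 TPM, and NM_001243048, at 1.16 and 1.12 TPM. Per3 had 3 rows whose order differed between the pools while their sum did not. NM_001289878 held 62.0% of Per3 in the alum pool and 30.01% in the alum + KLH pool, at 1.19 and 0.580 TPM. NM_011067 held 25.1% and 47.6%, at 0.479 and 0.919 TPM, and NM_001289877 held 12.9% and 22.4%, at 0.246 and 0.433 TPM. All 3 rows were thus below 3 TPM in both pools. All 3 Per3 rows are linked to the same transcript model in GENCODE M21, so their distinguishing sequence was not examined. Of the 16 rows, 7 were above 3 TPM in at least 1 pool and 0 of these differed by 1.5-fold or more, against 8.51% of all 14215 such transcripts.

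**Figure D2:**
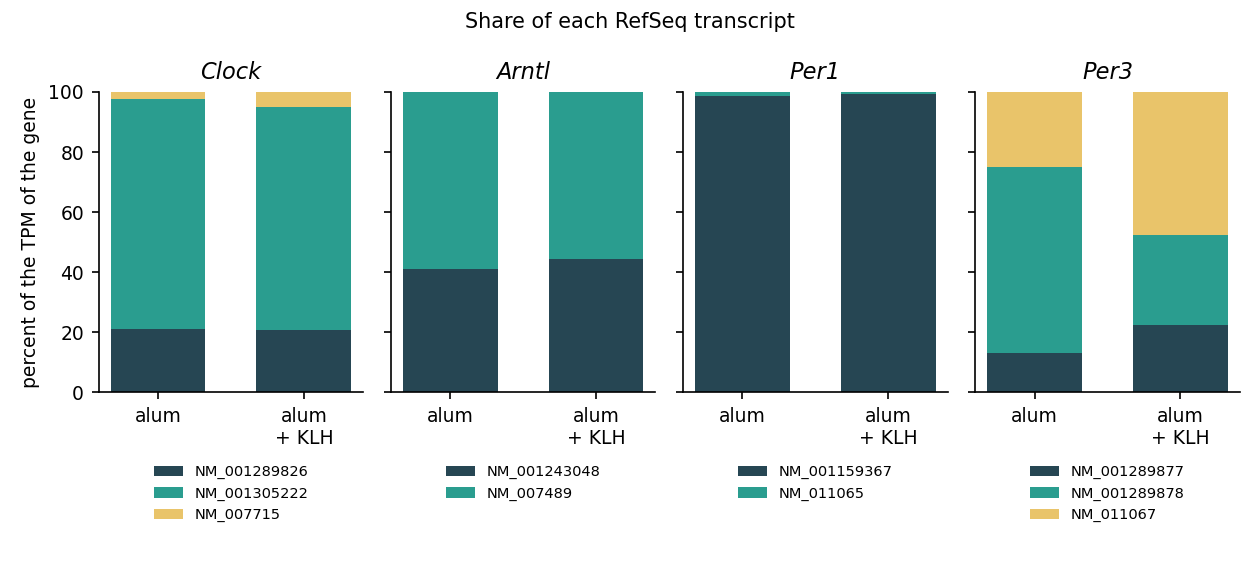
Percent of the summed TPM of Clock, Arntl, Per1 and Per3 (bars from 0 to 100) that each RefSeq transcript holds in the alum and the alum + KLH pool, 1 library each. Per1 lies almost wholly on NM_001159367 (98.7% and 99.2%), while NM_001289878 of Per3 goes from 62.0% to 30.01%. Arntl, Per1 and Per3 were below 3 TPM in both pools.

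Some of these genes share sequence with other genes, which bears on how reads were assigned. Exons of Nr1d1 overlap Thra on the opposite strand over 263 bases, or 8.55% of the exonic bases of Nr1d1 in GENCODE M21. Thra, a thyroid hormone receptor gene, was at 22.4 TPM in the alum pool and 16.8 TPM in the alum + KLH pool. Exons of Dbp overlap Sphk2, a sphingosine kinase gene, on the opposite strand over 539 bases or 18.0% of its exonic bases, and Sphk2 was at 2.20 and 1.56 TPM. In the 1 row of Dbp, NM_016974, 28.3% of the sequences of 31 bases occur in reverse in Sphk2. For the row of Nr1d1 and Thra this share is 8.88%. The libraries were stranded, but the strand option used in quantification is not given in the sources used here, so the part of Thra and Sphk2 reads in Nr1d1 and Dbp was not tested. Nr1d2 shares 11.1% of its sequences of 31 bases with 1 other annotated transcript, AC170187.1, on the same strand. No member shared more than 0.483% of these sequences with any other gene on the same strand besides Nr1d2.

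The comparison between the pools asks whether clock genes differed between alum-injected and alum + KLH-immunized mice, as a check on the phase of harvest. Of the 6 clock genes above 3 TPM in at least 1 pool, 0 differed by 1.5-fold or more. The background was low, since only 2.56% of all 11648 genes above this level did so, and a count of 0 among 6 genes lies near it and is no result about the clock genes. At 2-fold the count was likewise 0, beside 1.64% of all genes. Among these 6 genes, Clock, Cry1 and Nr1d2 were higher in the alum + KLH pool and Per2, Cry2 and Nr1d1 lower. The median log2 ratio was -0.048 over all 10 genes and -0.032 over the 6, beside -0.020 over all genes tested. The values of the 6 genes ranged from -0.27 for Nr1d1 to 0.23 for Nr1d2.

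**Figure D3:**
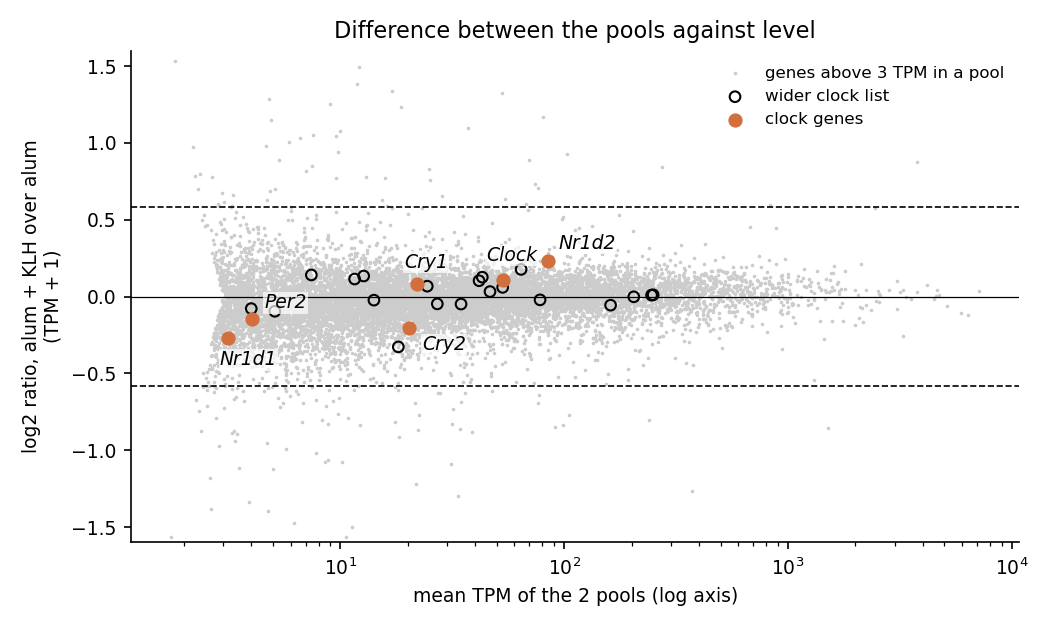
Log2 ratio of alum + KLH over alum (TPM + 1) against mean TPM (log axis) for genes above 3 TPM in at least 1 pool (grey points), the wider clock list (open circles) and the clock genes (orange), with dashed lines at 1.5-fold. All orange points and open circles lie between the dashed lines, and 157 grey points beyond 1.6 on the log2 axis are not drawn.

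A shift of harvest phase could part the genes that peak with Dbp from those that peak with Arntl, which was not tested in DRGs. The first arm held Dbp, Nr1d1, Nr1d2, Per1, Per2, Per3, Tef, Hlf and Ciart, a repressor of CLOCK and BMAL1, and the second Arntl, Npas2, Clock and Nfil3. Above 3 TPM in at least 1 pool, 4 genes of the first arm had a median log2 ratio of -0.097 and 2 genes of the second arm had 0.042, a contrast of -0.14. These 2 genes were Clock (0.11) and Nfil3 (-0.023), since Arntl and Npas2 were below 3 TPM in both pools. With this filter the second arm thus held neither Arntl nor Npas2, the genes named above as opposite in phase to Dbp. Over all 13 genes without this filter the contrast was 0.045, and above 10 TPM, where Nr1d1 and Per2 drop out, it was 0.048, so its direction depended on which genes entered. Within the first arm 5 of 9 genes were higher in the alum + KLH pool, and within the second arm 1 of 4 was. Ciart stood at 1.20 and 1.57 TPM.

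Ratios of genes within a library do not depend on how the libraries were scaled. The ratio of Dbp to Arntl was 0.159 in the alum pool and 0.296 in the alum + KLH pool, a difference of 0.90 on the log2 scale. The ratio of Nr1d1 to Arntl was 1.26 and 1.09, a difference of -0.21 in the other direction. Per2 to Arntl was 1.52 and 1.48, and Nr1d2 to Arntl was 27.7 and 36.04. The difference for Dbp to Arntl rests on values below 3 TPM in both genes and was 0.38 with 1 TPM added to each value.

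The wider clock list adds 24 genes to the 10, and of these 34 genes 26 were above 3 TPM in at least 1 pool and 0 differed by 1.5-fold or more, with 14 higher and 12 lower in the alum + KLH pool. Beside the 2.56% of all genes past this limit, a count of 0 among 26 is no result about the list. The median log2 ratio was 0.011. Among the kinases and ubiquitin ligases that set the lifetime of PER and CRY proteins, Gsk3b was highest at 248.8 and 250.8 TPM and Fbxw11 followed at 204.8 and 204.6 TPM. Csnk1e, which encodes casein kinase 1 epsilon, had the lowest log2 ratio of the list at -0.33, with 20.3 and 16.0 TPM. Its close relative Csnk1d was at 78.6 and 77.5 TPM. Fbxl21, which encodes a ligase component that binds CRY proteins, was at 11.1 and 12.1 TPM. The E-box repressor genes Bhlhe40 (60.2 and 68.2 TPM) and Bhlhe41 (52.0 and 54.2 TPM) both exceeded every Per and Cry gene. Of the other genes linked to the clock, Id2, which encodes an inhibitor of bHLH factors, was highest at 245.0 and 246.6 TPM. Noct, listed in the files as Ccrn4l and encoding a rhythmic phosphatase, was at 41.2 and 45.0 TPM.

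**Figure D4:**
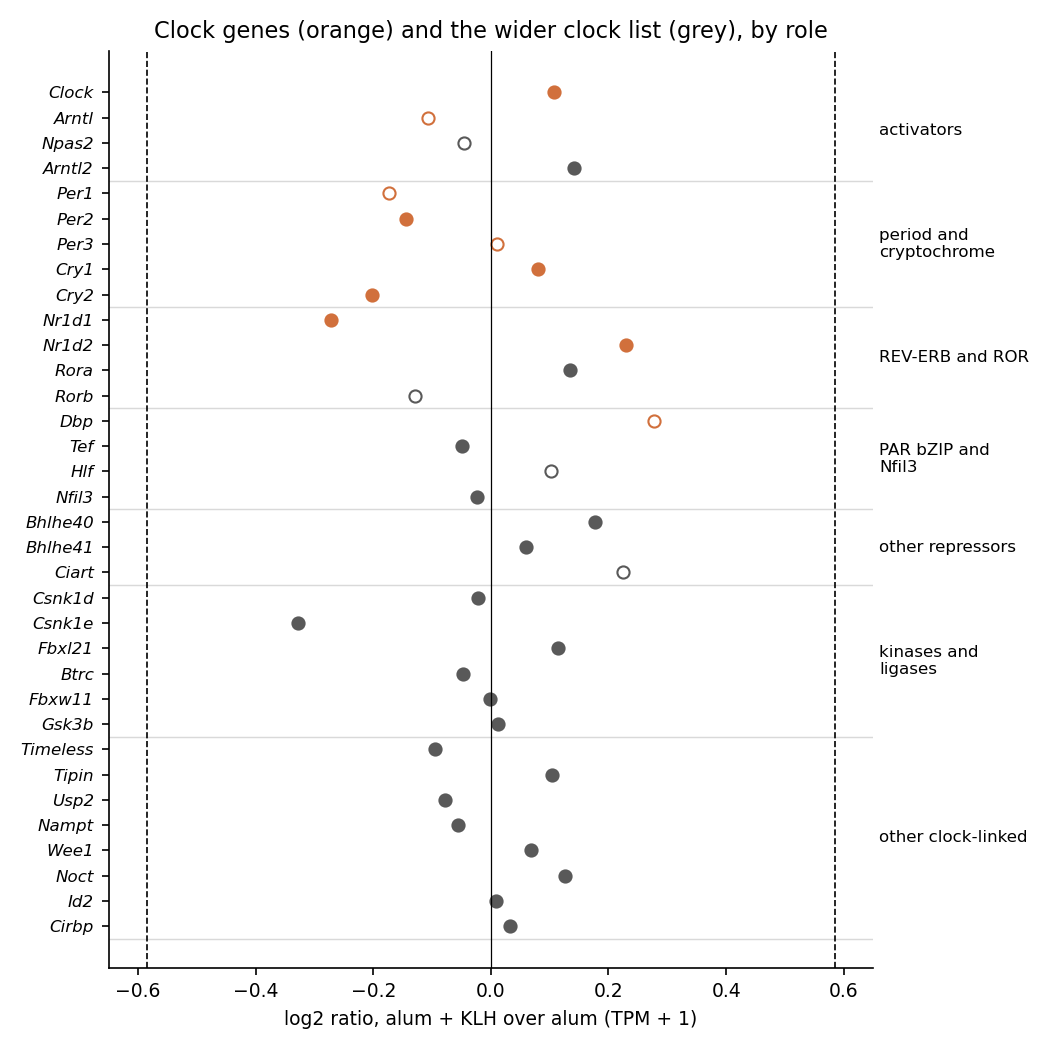
Log2 ratio of alum + KLH over alum (TPM + 1) for the 10 clock genes (orange) and 24 further clock genes (grey), grouped by role, with filled symbols for genes above 3 TPM in at least 1 pool, open symbols for the others, and dashed lines at 1.5-fold. All 34 symbols lie between the dashed lines, with Csnk1e at -0.33 the farthest to the left.

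Per1 is also induced outside the clock loop by glucocorticoids and by neuronal activity, so genes of these responses are given beside it. Of 12 glucocorticoid-induced genes, all above 3 TPM in at least 1 pool, 0 differed by 1.5-fold (2.56% of all genes did), with 6 higher, 6 lower and a median log2 ratio of 0.013. Tsc22d3 stood highest among them, with 273.8 and 305.4 TPM. Of 15 immediate early genes 13 were above 3 TPM in both pools, 0 differed by 1.5-fold, again beside 2.56% of all genes, and 10 of the 13 were lower in the alum + KLH pool, as were 56.4% of all genes tested. Fos, the gene of an AP-1 subunit, was the highest at 454.3 and 417.5 TPM, and the median log2 ratio of this list was -0.12. Per1 itself was at a log2 ratio of -0.17, and the part of either response in its value was not tested.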

How the data were processed

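RNA was measured in 2 libraries, each from pooled DRG neurons of 10 mice, 1 per group. According to the methods of the study and the processing notes of the submitters, the authors prepared stranded mRNA libraries, trimmed paired-end reads with cutadapt and quantified them with kallisto on the annotated mouse transcriptome (mm10). Tool versions and the strand option are not given in the sources used here. The authors deposited TPM for each RefSeq transcript, scaled to 1000000 per library, which hold no read numbers, so precision is unknown. For depth the study states only a minimum number of reads per sample. Values were summed per symbol, and log2((TPM + 1) ratios) were formed for genes above 3 TPM in at least 1 pool, with 1.5-fold as the limit. With 1 library a group no test was made. The members and lists were chosen with earlier results of these data known. The text names every member, the highest gene of each role and the genes of the phase arms. Arntl2, Rora, Rorb, Fbxl21, the Csnk1 and Bhlhe genes, Fbxw11, Noct and the overlapping genes were added after their values were seen. Some genes of the wider list are not reported here. The alternatives were pseudocounts of 0.1 and 0.5 TPM, rescaling by the median ratio or Hprt, the highest transcript, no filter, 10 TPM and 2-fold, and, added after seeing the data, ratios with none or 1 TPM added. Positions and upstream sequence came from RefSeq GRCm38.p6 and transcript models from GENCODE M21, the same assembly as mm10. Calculations used Python 3.11.15, numpy 2.4.6, pandas 2.3.3 and matplotlib 3.10.9. The count past the fold limit was tested on simulated data, with changes set only in genes at higher TPM than most clock genes.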

Additional observations from a re-analysis of the deposited data

How the results depend on the processing

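The counts of 0 genes past the fold limit, among the 10 clock genes and in the wider list, were also 0 under each of the 8 alternatives. Of these, a limit of 2-fold and genes above 10 TPM could only give 0 again. Among the genes that pass the filter, the largest log2 ratio without a pseudocount was -0.36, for Nr1d1. The smaller pseudocounts therefore could not reach the log2 limit of 0.585 either. The rescalings, with log2 factors of 0.019 and -0.085, were also too small to do so. The setting with no filter on low values kept the 1 TPM pseudocount. For Dbp the log2 ratio was 0.75 with none added and 0.64 with 0.1 TPM added, both past the log2 limit of 0.585. A smaller pseudocount was not combined with no filter. The median log2 ratio of -0.048 over the 10 clock genes was 0.094 among those above 10 TPM, where only Clock, Cry1, Cry2 and Nr1d2 remain, -0.14 with the highest transcript and -0.11 relative to Hprt. The phase contrast of -0.14 was 0.045 with no filter and 0.048 above 10 TPM, settings that differ only in which genes enter. The difference of the Dbp to Arntl ratio, 0.90 with no pseudocount, was 0.78, 0.53 and 0.38 with 0.1, 0.5 and 1 TPM added, as both genes lie near these amounts, and that of Nr1d1 to Arntl ranged from -0.21 to -0.13. Of 60 alternative values of single clock genes, 54 moved by less than 0.1 on the log2 scale and 3 had the other sign, for Per3 with Hprt (-0.045) or its highest transcript (-0.47) and for Cry1 with Hprt (-0.00032). Part of the 54 could not move further. The log2 factors of the rescalings were only 0.019 (median ratio) and -0.085 (Hprt), and genes with 1 row have only 1 transcript to take. The limit of 0.1 is also larger than the ratios of Cry1 (0.081) and Per3 (0.010) themselves. Hprt itself was at 989.3 and 1049.1 TPM. No paired analysis was possible because each group has 1 library, and for the same reason no replicate could be left out. The study states a minimum number of reads per sample, but the reads behind the genes below 3 TPM are not given.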

Other observations

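Single transcript rows of the wider clock list differed between the pools where the sums of their genes were close, in examples chosen after their values were seen. Of 47 rows, 25 were above 3 TPM in at least 1 pool and 1 differed by 1.5-fold or more, against 8.51% of all such transcripts. This row was NM_134015 of Fbxw11, a ubiquitin ligase component, at 34.7 TPM in the alum pool and 53.2 TPM in the alum + KLH pool, a log2 ratio of 0.60, whereas the 4 rows of the gene summed to 204.8 and 204.6 TPM. NM_172309 of Arntl2, below 3 TPM in both pools, was at 0.348 and 2.16 TPM, beside 7.01 and 7.84 TPM for the gene.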
